A study of Mus musculus with 3 samples.

Results

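Plasma exosomes of diabetic model mice and of normal mice were compared here by their circRNAs, using all 563 rows of the deposited circRNA table, each row 1 circRNA with its count of junction reads. The model library (A1) stands for male wild-type C57BL/6 mice that were fed a high-fat diet and then injected with streptozotocin (STZ), and the normal library (C1) for male wild-type C57BL/6 mice kept on basic forage. The mice's age, and whether plasma of several mice was combined for a library, were not stated in the paper's text or the labels, so each group rests on 1 library that may stand for 1 mouse or for many. Another library (B1), from model mice given electroacupuncture (EA), is cited only beside results of the other 2. At least 1 read in the model or the normal library was found for 458 of the 563 circRNAs, and the other 105 had reads in library B1 alone.

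The groups follow the library codes on the sheets of the paper's own comparisons, which set A1 as model against C1 as normal. GEO's sample titles say otherwise: A1 is titled as the normal group, C1 as the model + EA group and B1 as the model group. Under these titles the values below would be those of a normal library over a model + EA library, and every direction given here depends on which of the 2 sources is right.

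High-fat feeding makes mice resistant to insulin, and STZ enters islet β cells through their glucose transporter and kills them, so that the combination is used as a model of type 2 diabetes. Exosomes are small vesicles of endosomal origin that most cell types release, and plasma collects them from blood cells, vessel walls and organs. A circRNA is a closed circle made by back-splicing, in which the donor site of an exon is joined to an acceptor site upstream of it, often between long introns. It has no free ends, resists exonucleases and is known to collect in platelets, red cells and extracellular vesicles. Reads across the back-splice junction count the circle, not the linear transcript of its host gene.

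The model library held 4125 junction reads and the normal library 2913. The authors' normalized values multiply these reads by 1.28 in the model library and by 1.00 in the normal library, and no source used here says how these factors were derived. Ratios below use them unless said otherwise, with an exact 95% interval from the split of the reads. This interval covers counting error only and no spread between mice. It takes each read as independent, so PCR copies of 1 molecule would make it too narrow. Unscaled reads lower every log2 ratio by 0.35, scaling by total junction reads shifts it by -0.85, and scaling by edgeR's TMM factors shifts it by -1.63. TMM factors rest only on circRNAs read in both libraries of a pair. These are few here, at 19 for the model and normal libraries and 14 and 32 for each of them with B1. TMM is thus no independent check of the ratios of shared circRNAs. A count of 0 allows about 3 reads, 0.0727% of the reads of the model library and 0.103% of those of the normal library. A fold against 0, written as "at least" and called a lower bound, is computed against 3 reads with the authors' factors. It leaves out the counting error of the other count, so the exact interval can reach smaller folds. For Prrc2b (45 reads in the model library) the bound was 19.1-fold, while the interval began at 14.9, or at 4.82 over the 4 scalings. With 1 library a group there is no spread between mice, no test across samples and no p-value.

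The junctions that carry the comparison are shown here for 2 of the 3 circRNAs with the most reads in the model library alone, the 3 with the most in the normal library alone and the 4 with the most reads over both among those whose printed bases are coding. Capitals are the 20 bases that end the circle's last exon and lower case the 20 bases that begin its first exon, 5′ to 3′, so that a read must cross from capitals to lower case to count. The sequences come from GENCODE M21 transcripts on GRCm38 (mm10), and reads are given for the model and then the normal library. circRad52, at chr6:119920110-119921028 on the plus strand, joins exon 11 to exon 10 and had 117 and 0 reads. circLrch3, at chr16:32950292-32961744 (+), had 50 and 0 reads. circUbe2k, at chr5:65565989-65594548 (+), had 0 and 53 reads. circStam, at chr2:14128546-14134441 (+), had 0 and 29 reads, and circEif3a, a single exon at chr19:60764032-60764233 (-), had 0 and 26 reads. circTlk1, at chr2:70770004-70786995 (-), had 131 and 19 reads. circMed12l, at chr3:59031546-59042413 (+), had 67 and 1 reads, circRnf169, at chr7:99935162-99955540 (-), had 51 and 17 reads, and circRps6kb1, at chr11:86532772-86535460 (-), had 49 and 17 reads.
circRad52: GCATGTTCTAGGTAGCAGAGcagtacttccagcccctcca
circLrch3: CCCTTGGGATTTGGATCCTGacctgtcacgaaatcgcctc
circUbe2k: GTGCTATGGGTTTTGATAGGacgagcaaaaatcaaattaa
circStam: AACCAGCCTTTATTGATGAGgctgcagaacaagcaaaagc
circEif3a: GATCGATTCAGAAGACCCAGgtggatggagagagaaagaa
circTlk1: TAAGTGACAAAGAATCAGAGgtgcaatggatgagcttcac
circMed12l: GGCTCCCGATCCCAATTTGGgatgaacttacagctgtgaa
circRnf169: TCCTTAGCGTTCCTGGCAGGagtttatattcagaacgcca
circRps6kb1: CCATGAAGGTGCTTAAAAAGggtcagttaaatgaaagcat

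Most circRNAs were read in 1 of the 2 libraries. The model library held 157 circRNAs and the normal library 320, and only 19 were in both, which is 12.1% of the model library's circRNAs (exact 95% interval 7.45 to 18.3) and 5.94% of the normal library's (3.61 to 9.12). Another 138 had reads only in the model library and 301 only in the normal library. At a threshold of 2-fold, with 0.1 reads standing for 0, 152 of 458 circRNAs (33.2%) came out higher in the model library and 302 (65.9%) came out lower. The other library had 0 reads for 138 of the 152 and for 301 of the 302, so these calls are nearly the same as presence and absence at this depth.

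**Figure D1:**
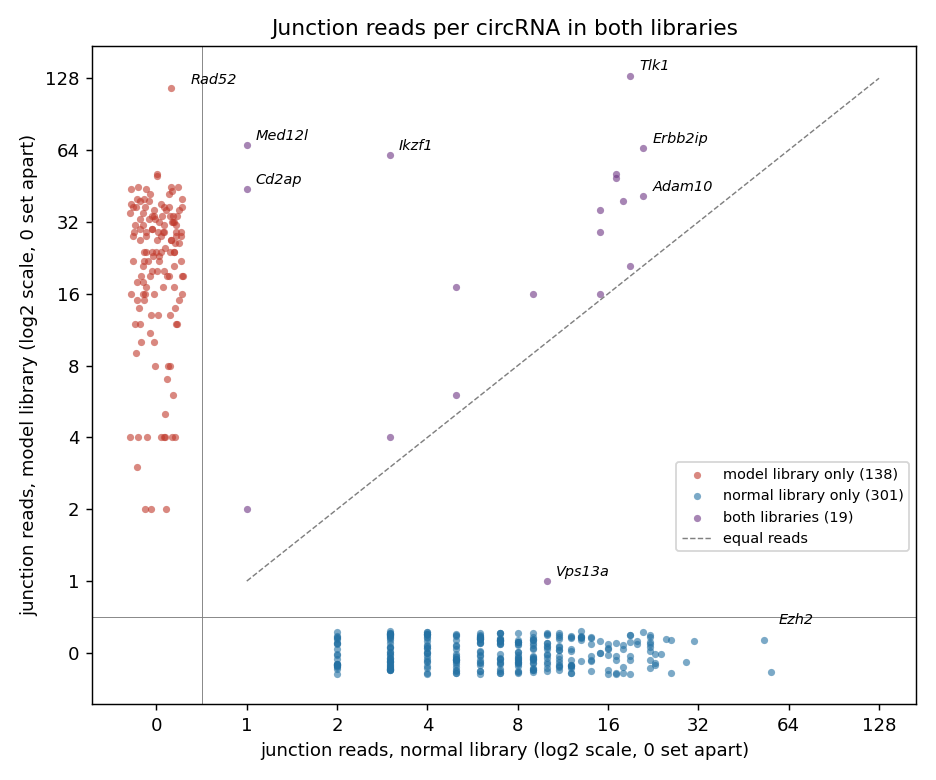
Junction reads of the 458 circRNAs, with the model library on the vertical axis and the normal library on the horizontal axis (log2 scales, with 0 set apart and spread at random for display); colors give the library or libraries with reads. The 138 circRNAs of the model library alone lie along the left edge, mostly at more reads than the 301 of the normal library alone along the lower edge, and 18 of the 19 shared circRNAs lie above the line of equal reads.

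Reads per circRNA differed between the libraries. The circRNAs of the model library had a median of 25 reads (quartiles 16 and 34), and those of the normal library a median of 7 (4 and 12). The 10 most read circRNAs took 16.7% of the reads in the model library and 10.8% in the normal library. At least 20 reads were reached by 63.7% of the model library's circRNAs and by 7.50% of the normal library's. No circRNA was listed on a single read in 1 of the 2 libraries and none in the other.

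**Figure D2:**
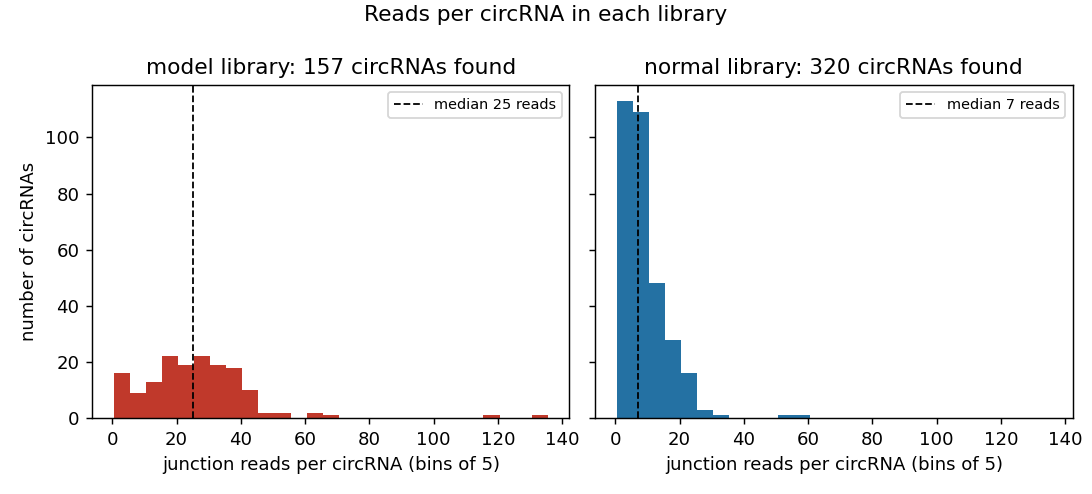
Number of circRNAs (vertical axis) by junction reads per circRNA (horizontal axis, bins of 5 reads) in the model library, left, and the normal library, right; dashed lines are medians. The model library's circRNAs center on 25 reads, and those of the normal library gather under 12.

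The count of differences in each direction depended on the reads required and on the scaling. A lower bound of at least 2-fold was reached by 126 of the 138 circRNAs of the model library alone and by 147 of the 301 of the normal library alone, with median bounds of 10.8-fold and 2.35-fold over those with more than 3 reads. Where the exact interval of the ratio had to lie beyond 2-fold, the authors' factors gave 130 circRNAs (28.4%) higher in the model library and 73 (15.9%) lower. The order turned with total-read scaling, at 116 higher and 172 lower, and with TMM, at 91 higher and 218 lower, while unscaled reads gave 123 and 103. The rule was met in the same direction under all 4 scalings by 91 higher circRNAs (19.9%) and 73 lower ones (15.9%). These calls are named below as held under the 4 scalings, a rule chosen after the data were seen.

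The 19 shared circRNAs had more reads in the model library, and the size of this difference depended on the scaling. Together they took 696 reads in the model library (16.9%) and 215 in the normal library (7.38%), with medians of 36 and 15 reads. With the authors' factors 14 were at least 2-fold higher, 1 was lower and 4 lay within 2-fold, at a median ratio of 2.76. The median ratio was 2.17 with unscaled reads, 1.53 with total-read scaling and 0.892 with TMM, and 8 of the 19 had a ratio above 1 under every scaling. Since TMM rests on such shared circRNAs, its ratios near 1 for them do not decide whether they differed.

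Among the shared circRNAs, 4 had an interval above 1 and 1 had an interval below 1 under all 4 scalings. The circRNA of Tlk1, a kinase that acts on histone chaperones during DNA replication, had 131 reads in the model library and 19 in the normal library (ratio 8.79, interval 5.41 to 15.1), and its ratio was still 2.84 (1.75 to 4.87) with TMM. Med12l encodes a subunit of the Mediator complex, which links transcription factors to RNA polymerase II, and its circRNA had 67 reads against 1 (ratio 85.5, 14.8 to 3425). For Ikzf1, the lymphoid transcription factor Ikaros, the counts were 61 and 3 (ratio 25.9, 8.47 to 129). Cd2ap, an adaptor between membrane receptors and actin, gave 44 reads against 1 (ratio 56.1, 9.56 to 2266). The intervals of the last 3 lay above 2-fold under all 4 scalings. In the other direction, the circRNA of Vps13a, a lipid transfer protein, had 1 read in the model library and 10 in the normal library (ratio 0.128, 0.00294 to 0.897). These 5 circRNAs had 52 reads (Med12l) or 0 reads (the other 4) in library B1.

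For a further group the model library had more reads, yet with TMM the ratio lay between 0.732 and 1.40. Signaling and membrane proteins were among these hosts. The circRNA of Erbb2ip, a scaffold that binds the receptor ErbB2, had 65 and 21 reads in the model and normal libraries, a ratio of 3.95 (2.38 to 6.80) with the authors' factors and 1.27 (0.769 to 2.20) with TMM. That of Rps6kb1, the S6 kinase downstream of mTORC1, had 49 and 17 reads and ratios of 3.68 (2.08 to 6.81) and 1.19 (0.672 to 2.20). The membrane protease Adam10 gave 41 and 21 reads, with a ratio of 2.49 (1.44 to 4.44) with the authors' factors and 0.804 (0.464 to 1.43) with TMM. Atp8a1, a phospholipid flippase, gave 17 and 5 reads (ratio 4.34, 1.54 to 15.0).

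Hosts that act in the nucleus or on ubiquitin made up the rest of this group. Rnf169, a protein that binds ubiquitylated histones at DNA breaks, had 51 and 17 reads in the model and normal libraries (ratio 3.83, 2.17 to 7.07). Pola1, the DNA polymerase that starts new strands, had 39 and 18 (ratio 2.76, 1.54 to 5.13), and the ubiquitin ligase Ankib1 had 36 and 15 (3.06, 1.63 to 6.02). The transcription factor Nfix had 29 and 15 (2.47, 1.28 to 4.95), and Zfpm1, a cofactor of GATA1, had 16 and 9 (2.27, 0.943 to 5.82). With TMM the ratios of Pola1, Ankib1, Nfix, Zfpm1 and Adam10 were all under 1, each with an interval that held 1.

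The remaining shared circRNAs differed by only 1 or 2 reads between the libraries. Strn3, a striatin that scaffolds the phosphatase PP2A, had 21 and 19 reads in the model and normal libraries (ratio 1.41, 0.721 to 2.77), and the Mediator subunit Med13l had 16 and 15 (1.36, 0.630 to 2.95). With TMM both lay under 1, at 0.455 (0.233 to 0.895) and 0.439 (0.203 to 0.954). Spc24, part of the Ndc80 complex of the kinetochore, had 6 and 5 reads (1.53, 0.389 to 6.34). The rows of the globin genes Hbb-bt (4 and 3 reads) and Hba-a1 (2 and 1 reads, no fold given, though counted among the 14 above) span neighboring globin genes of near-identical sequence, so that the copy the reads came from is uncertain.

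**Figure D3:**
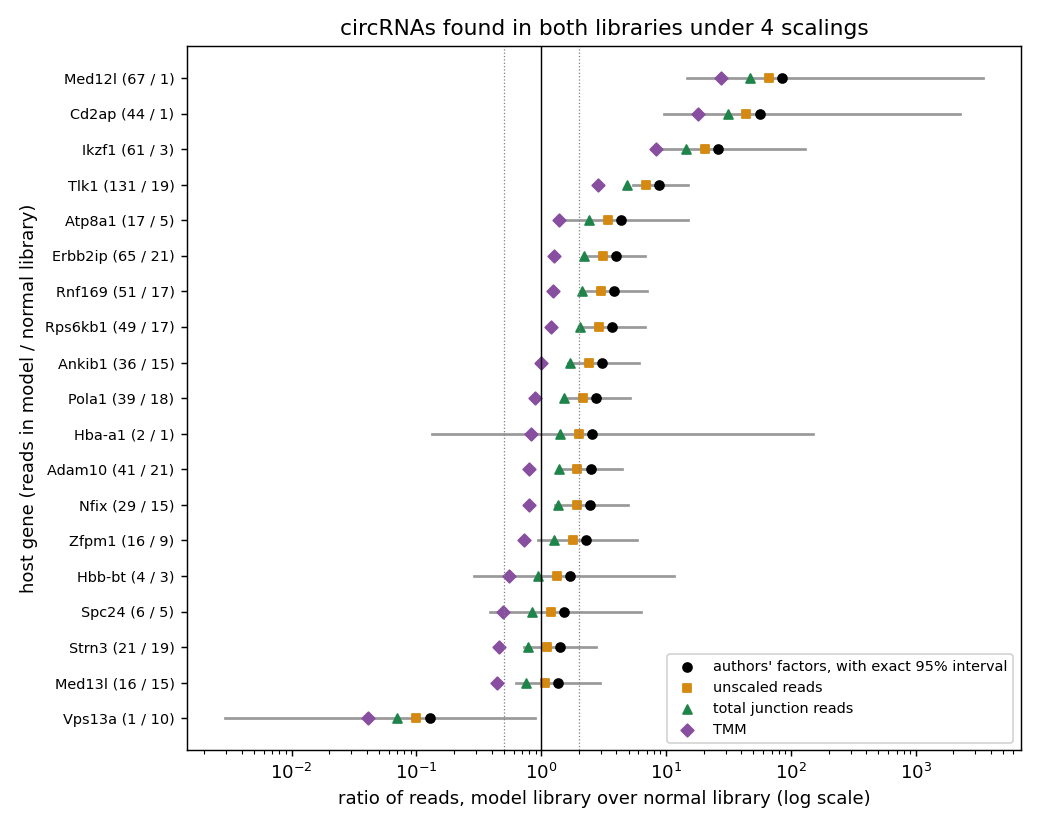
Ratio of reads in the model library over the normal library (log axis) for the 19 circRNAs found in both, with the reads of each library beside the host name; black points carry exact 95% intervals with the authors' factors, and the other markers give the same ratio unscaled, scaled by total reads and with TMM. Med12l, Cd2ap, Ikzf1 and Tlk1 stay right of the line at 1 under every scaling, Vps13a stays left of it, and 10 circRNAs cross it.

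The circRNAs read most in the model library alone came from hosts of varied function, DNA repair, kinase and chromatin genes among them. Rad52, which pairs DNA strands in repair, led with 117 reads against 0 (at least 49.7-fold higher). The 16 most read ones, at 39 reads or more with ties, took 766 reads (18.6% of the library). All 16 were held under the 4 scalings, which follows from their reads, since 20 were enough. Of these, 15 are named here. Kinases and their regulators were Map3k7, the TGF-β-activated kinase (45 reads, at least 19.1-fold), and Tsc2, the inhibitor of mTORC1 (39, at least 16.6-fold). Chromatin and nuclear receptor proteins were Nsd1, a histone H3 lysine methyltransferase (45, at least 19.1-fold), Arid1a, a subunit of the BAF remodeler (40, at least 17.0-fold), and Nrip1, a corepressor of nuclear receptors in fat and liver (43, at least 18.3-fold).

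Lipid and membrane signaling, repair and SUMO hosts followed. Fam126a, a part of the phosphatidylinositol 4-kinase complex at the plasma membrane, had 42 reads in the model library and 0 in the normal library (at least 17.9-fold higher), and the phosphoinositide phosphatase Inpp4b had 39 (at least 16.6-fold). Rad23b, which helps recognize damaged DNA, had 44 reads (at least 18.7-fold), and Pias1, a SUMO ligase, had 40 (at least 17.0-fold). Prpsap2, which binds the enzyme that makes phosphoribosyl pyrophosphate for nucleotide synthesis, had 40, Lrch3 had 50 and Prrc2b had 45. Another 2 were second circles of shared hosts, Erbb2ip (44 reads) and Strn3 (42 reads). Only 3 of the 138 circRNAs of the model library alone (2.17%) had reads in library B1.

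In the normal library alone, the leading circRNAs also came from hosts of varied function. Ezh2, the methyltransferase of Polycomb repressive complex 2, had 0 reads in the model library and 56 in the normal library (at least 14.6-fold lower in the model library), and Ube2k, a ubiquitin-conjugating enzyme, had 0 and 53 (at least 13.9-fold). These were the only 2 with a bound of 10-fold or more. With ties, the 19 most read ones had 22 reads or more and took 515 reads (17.7% of the library). All 19 were held under the 4 scalings, which again follows from their reads, since 12 were enough. Other chromatin and DNA hosts were Mbd2, which binds methylated DNA (31 reads, at least 8.10-fold lower in the model library), Smarcc1, a core subunit of the BAF remodeler (26, at least 6.80-fold), Cdc45, a part of the replicative helicase, and Tfdp2, the partner of E2F factors (22 each, at least 5.75-fold).

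Membrane and cytoskeleton hosts were Stam, an adaptor that sorts ubiquitylated receptors in endosomes (29 reads in the normal library, at least 7.58-fold lower in the model library), Fcho2, which starts clathrin-coated pits (24, at least 6.27-fold), and Spire1, an actin nucleator (23, at least 6.01-fold). Setd3, which methylates actin, had 25 reads (at least 6.53-fold), and Cenpi, a centromere protein, had 23. The ubiquitin ligase Arih1 had 23 reads and Dcun1d1, which promotes the attachment of NEDD8 to cullins, had 22. Eif3a, the largest subunit of translation initiation factor 3, had 26. The rest had 22 reads each, from Ppp4r1, Cacul1, an intron of Nfia, an intron of the splicing factor Rbm39 and an intronic row without a host. In all, 21 of the 301 circRNAs of the normal library alone (6.98%) had reads in library B1.

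Most of the 379 hosts were read in 1 of the 2 libraries, 235 only in the normal one and 110 only in the model one. Reads came from 144 hosts in the model library and 269 in the normal library, and 34 were in both, which is 23.6% of the first and 12.6% of the second. Of these 34, 19 gave the same circRNA in both, 7 of them with further ones, and 15 were read in both libraries only through different circRNAs. Only 19 of all 458 circRNAs were shared, so a lack of shared circles was the rule for the table and not particular to these 15 hosts. Summed over circles without scaling, 12 of these 15 hosts had more reads in the model library, 2 had fewer and 1 had as many. Reads per circRNA were also higher over the whole model library, at a median of 25 against 7, so this is not particular to these hosts. An interval above 1 under all 4 scalings was found for 3 of the 15 (Pip5k1b, Lrch3 and Stag2).

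Arhgap10, a GTPase-activating protein, gave circles of exons 16 to 18 (37 reads) and 8 to 13 (33 reads) in the model library, and circles of exons 14 to 18 and 14 to 16 (11 reads each) in the normal library. Its summed ratio was 4.06 (2.48 to 6.88) with the authors' factors. Pip5k1b, a kinase that makes PI(4,5)P2, gave circles of exons 8 to 13 (37 reads) and 12 to 14 (26 reads) in the model library and 1 of exons 2 to 3 (2 reads) in the normal library, a summed ratio of 40.2 (10.7 to 339). Both circles of the model library lay far downstream of the 1 in the normal library. Lrch3 gave exons 2 to 6 (50 reads) in the model library against exons 10 to 13 (4 reads) in the normal library (15.9, 5.85 to 60.8). For Stag2, a cohesin subunit, the model library had 34 reads and the normal library 3 (14.5, 4.55 to 73.6).

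Other hosts showed smaller summed differences. Nusap1, a spindle protein, had a circle of exons 5 to 6 with 36 reads in the model library, and circles of exons 2 to 8 (11 reads) and 4 to 5 (3 reads) in the normal library. Wapal, which releases cohesin from chromosomes, gave exons 3 to 4 (28 reads) in the model library and exons 2 to 4 (10 reads) in the normal library, so that the smaller circle lies within the larger. Fam126a gave exons 8 to 9 (42 reads) against exons 3 to 10 (17 reads). Picalm, a clathrin adaptor, was the clearest of the 2 with fewer reads in the model library, at 4 against 15 in the normal library (0.340, 0.0822 to 1.07), and Eri3 had 16 against 19. Of the circRNAs of the model library alone, 12 (8.70%), from 10 hosts, shared exactly 1 junction end with a circRNA of the normal library, so that the other splice site alone set them apart.

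**Figure D4:**
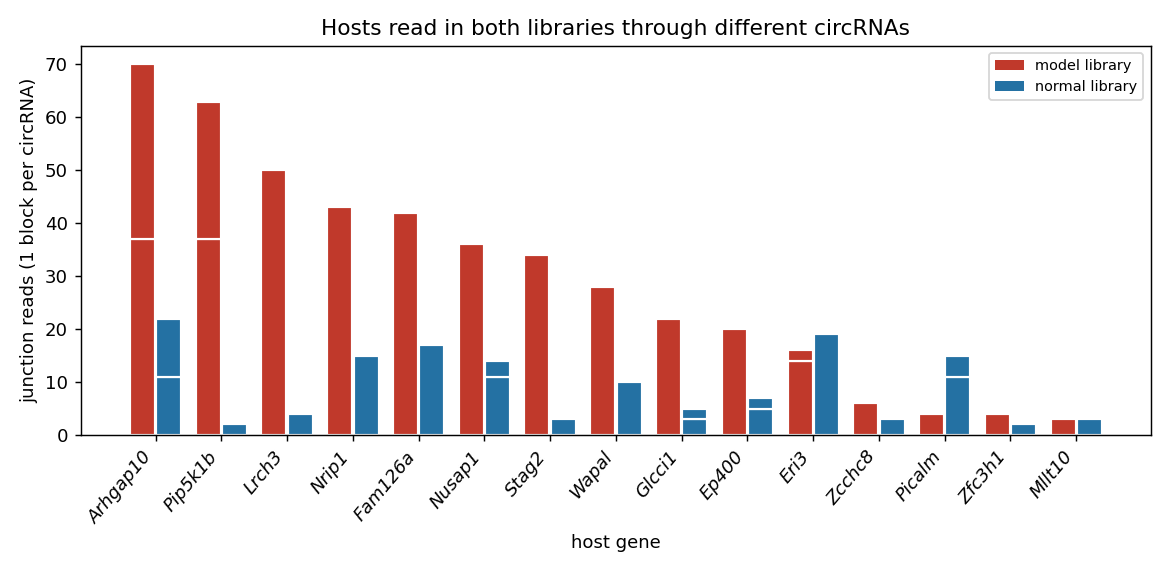
Junction reads (vertical axis) of the 15 hosts read in both libraries only through different circRNAs, with the model library left of the normal library for each host and 1 block per circRNA. The model library's bar is the taller one for 12 hosts, the normal library's for Eri3 and Picalm, and Mllt10 had 3 reads in each.

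Hosts with 4 or more circRNAs in the table showed both patterns. All of Tlk1's circles were read in the normal library, with 19 reads for exons 2 to 3, 9 for exons 2 to 7, 7 for exons 2 to 4 and 3 for exons 4 to 12, while the model library had 131 reads for exons 2 to 3 and 0 for the other 3. The model library thus held 1 circle of Tlk1 where the normal library held 4 from fewer reads. Strn3 gave exons 2 to 16 (42 reads), 4 to 7 (23 reads) and 2 to 7 (21 reads) in the model library, and exons 2 to 7 (19 reads), 2 to 4 (9 reads) and 2 to 3 (3 reads) in the normal library. Ezh2 had 0 reads in the model library for any of its 4 circles and 75 in the normal library. Casc5, a scaffold of the kinetochore, had 0 reads in the model library and 40 over 4 circles in the normal library. Sox6, a transcription factor of red cell precursors, had 12 reads in the normal library alone for 1 of its 4.

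The hosts were then described by function, with lists of genes matched by symbol, beside the 33.2% higher and 65.9% lower over all 458 circRNAs and the 19.9% and 15.9% held under the 4 scalings. A host's function belongs to its protein, and what its circle does was not measured. Of the 14 lists, 11 had more circRNAs lower than higher in the model library at 2-fold, as did the whole table. Among calls held under the 4 scalings, 5 lists had more higher, 5 had more lower and 4 had equal numbers. Against 0 reads, a higher call was held from 20 reads and a lower one from 12, so this balance gives no direction. With 3 reads in place of 0, the median log2 ratio was -0.06 over all circRNAs and ran from -0.87 for ubiquitin and SUMO to 1.88 for insulin, mTOR and MAP kinase signaling. With 0.1 reads in place of 0 it was -4.97 over all circRNAs, and its sign was then negative, no longer positive, for DNA replication and repair (-4.47 against 0.14), Mediator and nuclear receptor coregulators (-2.26 against 0.19), phosphoinositide signaling (-3.97 against 0.35) and blood cell transcription factors (-1.40 against 0.77).

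Insulin, mTOR and MAP kinase signaling was the list with the largest share of held higher calls, with 7 of 11 found circRNAs higher and 4 lower, and 5 and 1 held. Its members with reads in the model library included Rps6kb1, Map3k7, Tsc2, Map2k5 (27 reads), the Rab GTPase-activating protein Tbc1d1 (23 reads) and Mapk4 (4 reads). Those lower in the model library were Map4k3 (14 and 6 reads in the normal library for its 2 circles), Ralgapa1 (10 reads) and Map4k5 (4 reads). The list took 5.77% of the reads of the model library and 1.75% of those of the normal library. In phosphoinositide signaling, 9 of 20 were higher and 11 lower, 5 and 4 held, with 231 reads in the model library and 90 in the normal library. Inpp4b, Pip5k1b, Fam126a and its complex partner Ttc7b (27 reads) stood for the model library, and a second circle of Fam126a (17 reads), Rps6kc1 (15) and the Arf exchange factor Cyth3 (13) for the normal library.

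In lists of the cell cycle and nucleus, as in the whole table, many circRNAs of the normal library had few reads. At least 10 reads were reached by 9 of the 28 lower calls in cell division and 11 of the 30 in chromatin, against 104 of 302 over all circRNAs. In cell division, 9 of 38 were higher and 28 lower in the model library, and 5 and 6 were held. Nusap1, Stag2, the centrosome protein Kiz (32 reads) and the kinesin Kif14 (30 reads) led in the model library, and Cenpi, the kinetochore proteins Zwilch and Casc5 (19 reads each) and the centriole protein Cep128 (18 reads) in the normal library. In DNA replication and repair, 6 of 16 were higher and 10 lower (2 and 4 held). In chromatin, 11 of 41 were higher and 30 lower, with 7 held each way. No circRNA of the 9 of nuclear transport was read in the model library, which also lacked 301 of all 458 circRNAs. The normal library had 69 reads for this list, led by the importin Ipo11 (16 reads) and the nucleoporins Nup205 and Nup133 (14 each). Only 3 of the 9 were held as lower. Mediator and nuclear receptor coregulators had 4 of 10 higher and 5 lower (2 held each way).

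Among cytoplasmic lists, ubiquitin and SUMO had 12 of 39 higher and 27 lower in the model library (8 and 12 held), with Rnf169, Pias1 and Rnf214 (38 reads) against Ube2k and Arih1. Endosome and vesicle traffic had 7 of 29 higher and 22 lower (4 held each way), with the sorting nexin Snx13 (37 reads) and Chm, a Rab escort protein (26 reads), in the model library, against Stam, Fcho2 and Dennd4a (19 reads) in the normal library. Translation and RNA binding had 13 of 40 higher and 27 lower (3 and 4 held), with the splicing regulator Hnrnpm (34 reads) and the helicase Ddx46 (29 reads) in the model library. The list's reads were 177 (4.29%) in the model library and 224 (7.69%) in the normal library.

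Glucose and lipid metabolism had 5 of 18 higher and 13 lower, with 3 held each way. The model library had Prpsap2, Mecr, an enzyme of mitochondrial fatty acid synthesis (35 reads), and the sialyltransferase St3gal6 (24 reads). The normal library had Slc25a37, the iron importer mitoferrin (21 reads), the phospholipase Pla2g4c (17 reads) and Lpin2, a phosphatidate phosphatase (16 reads). Prpsap2 and Slc25a37 were in the list as drawn up, though they act in nucleotide synthesis and iron import. Pdk1, a brake on pyruvate oxidation, had 4 reads in the model library and 0 in the normal library. Blood cell transcription factors had 8 of 16 higher and 8 lower (5 and 2 held), with Ikzf1, Pou2f1 (38 reads), Nfix and Aff3 (28 reads) in the model library. This list had 234 reads (5.67%) in the model library and 84 (2.88%) in the normal library. Hosts of circRNAs known to be abundant across tissues had 16 of 26 higher and 9 lower (9 and 1 held), with 490 reads (11.9%) in the model library and 159 (5.46%) in the normal library.

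**Figure D5:**
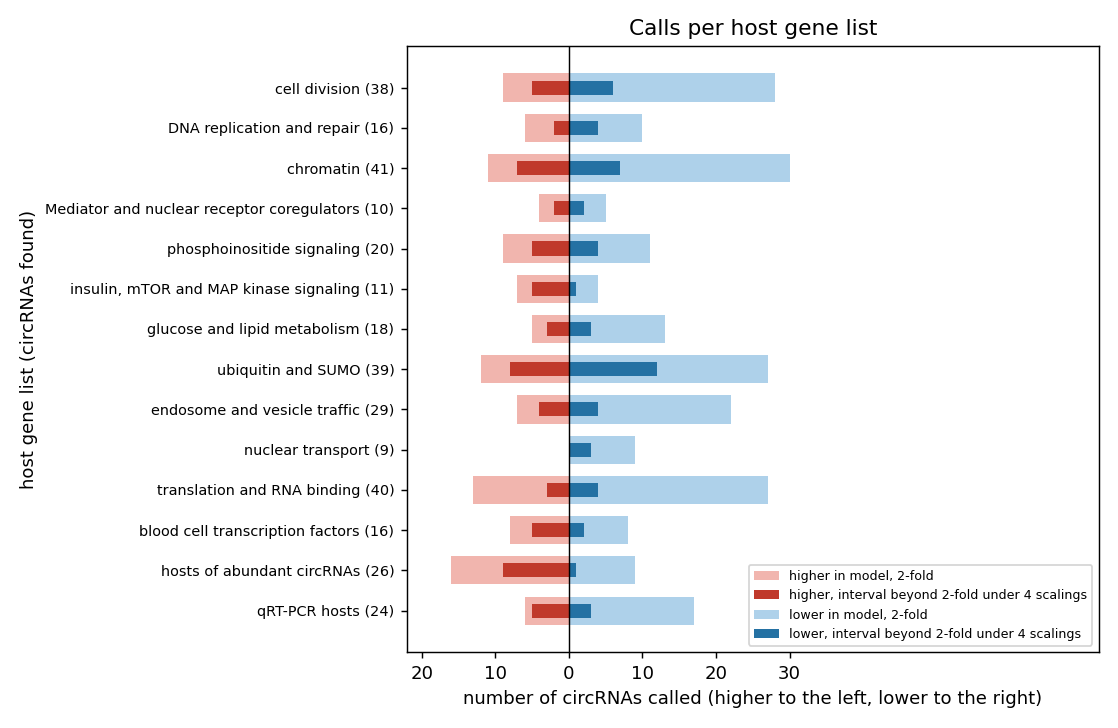
Number of circRNAs (horizontal axis) called higher in the model library, to the left, or lower, to the right, for each list of host genes (vertical axis, with the circRNAs found); pale bars use the 2-fold rule and dark bars the calls held under the 4 scalings. Pale bars are longer to the right for 11 of 14 lists, while dark bars are longer to the left for 5 and to the right for 5. Held higher calls needed more reads than held lower ones, so the dark bars of the 2 sides are not directly comparable.

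Circles of markers of blood cell types were few, and 7 of 12 marker lists had none in the table: myeloid cells, hepatocytes, pancreatic islet cells, pancreatic acinar cells, adipocytes, muscle and endothelium. Islet genes such as Ins2 and Gcg and liver genes such as Alb thus had no row. Erythroid markers had 38 reads in the model library (0.921%) and 91 in the normal library (3.12%), over 4 and 10 circRNAs of the 12 found. In the model library these were Tmem56 (21 reads), Hemgn (11) and the globin rows, and in the normal library Epb4.1, a protein of the red cell skeleton (19, 13 and 6 reads), Slc25a37 (21 and 5), carbonic anhydrase Car2 (12), Dmtn, Ank1 and the globin rows. The defining genes Alas2 and Slc4a1 had no row. For platelets, Gp6, the collagen receptor, was the only marker read (37 reads in the model library, 0 in the normal library), and Pf4 and Itga2b had no row. B cell markers had 61 reads in the model library and 0 in the normal library, from Aff3, Dapp1 (17 reads) and Plcg2 (16 reads), none of which is restricted to B cells, and Ms4a1 had no row. Of T and NK cell markers only Ptpn22, a phosphatase of antigen receptor signaling, was read (27 and 0 reads). Genes listed for exosome proteins had 0 reads in the model library and 56 in the normal library, from Stam, Anxa2 (11), Hsp90b1 (9) and Chmp4b (7). Of these 4 circRNAs 1 was held as lower, and Hsp90b1 encodes a chaperone of the endoplasmic reticulum, not a protein particular to exosomes. The 2 libraries thus also differed in these markers, whose part in the other differences was not tested, and fewer vesicles from a cell type and fewer circles per vesicle cannot be told apart.

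The primers of the study's qRT-PCR were placed on the circles, since they tell which circle such an assay counts. Both primers of 11 hosts lay on at least 1 circle of the table and faced outward across the junction. The whole Tlk1 circle of exons 2 to 3 is shown, with the reverse primer's site and then the forward primer in capitals, from the GENCODE M21 transcript and the study's primer table; the junction joins its last base to its first.
circTlk1 circle: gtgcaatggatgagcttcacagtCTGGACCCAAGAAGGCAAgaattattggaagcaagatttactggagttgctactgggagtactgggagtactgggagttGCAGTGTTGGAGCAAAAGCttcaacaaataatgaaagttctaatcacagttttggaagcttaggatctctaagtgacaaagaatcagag

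Circles that hold both Tlk1 primers had 131 reads in the model library and 35 over 3 circles in the normal library, so that the summed ratio of 4.77 (3.27 to 7.14) was smaller than the 8.79 of the circle shown. Those of Prrc2b (45 reads), Strn3 (42), Hipk2, a nuclear kinase (35), and Pwwp2a, which binds histone H2A.Z (34), were read in the model library alone. The other 6 were read in the normal library alone. Ezh2 had 70 reads over 3 circles (18.3-fold lower in the model library against 3 reads, interval of the ratio up to 0.0690). Zwilch (19), Btaf1 (10), Cep128 (6) and Pde5a (5) were also among them. For Cep128 and Pde5a the interval of the ratio reached 1.08 and 1.39, so that at this depth no difference was detectable. As a list, the qRT-PCR hosts had 6 of 24 higher and 17 lower (5 and 3 held), and since the study chose them on these libraries the count is no independent evidence of a direction.

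The make-up of the circles was described for each side and for the shared ones. Exonic circRNAs were 89.1% of those of the model library alone (82.7 to 93.8) and 80.4% of those of the normal library alone (75.5 to 84.7), and intronic ones 2.90% (0.795 to 7.26) and 7.31% (4.64 to 10.9). circRNAs listed in an earlier database were 63.8% (55.2 to 71.8) and 59.1% (53.3 to 64.7), and 16 of the 19 shared ones. Both sides had a median of 3 exons, with a median spliced length of 410.0 nt in the model library alone and 378 nt in the normal library alone. A start at exon 2, the first exon with a splice acceptor, was found in 38.8% (30.1 to 48.1) of those with exon edges in the model library alone and 35.1% (29.1 to 41.4) in the normal library alone, against 14 of 16 shared circles (87.5%, 61.7 to 98.4).

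Introns beside the circles were also longer for shared ones. The intron before the circle had a median of 24229 nt for shared circles, against 9470 nt for those of the model library alone and 8132 nt for those of the normal library alone. The intron after it had medians of 13688, 8685 and 4482 nt in the same order, and the median GC content of the circles was 44.5%, 46.9% and 45.0%. With at least 10 reads, the introns after the circle had medians of 9092 nt in the model library alone and 5370 nt in the normal library alone. These medians describe circRNAs of 1 library each, which are not replicates, and no test was made. Both rows of the mitochondrial genome were in the normal library alone, with 24 reads in all.

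The share of circRNAs also found in the other library did not climb steadily with reads. Of the model library's 100 circRNAs with 20 or more reads, 12 were also read in the normal library (interval 6.36% to 20.0%), against 3 of the 15 with 1 to 4 reads (4.33% to 48.1%). Of the normal library's, 2 of 24 with 20 or more reads were also read in the model library (1.03% to 27.0%), 8 of 32 with 15 to 19 reads (11.5% to 43.4%) and 5 of 89 with 1 to 4 reads (1.85% to 12.6%). Beside the 19 circRNAs shared by the model and normal libraries, library B1 shared 14 with the model library (8.92% of its own, 10.0% of B1's) and 32 with the normal library (10.0% of its own, 22.9% of B1's).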

How the data were processed

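Exosomes were isolated from mouse plasma by differential centrifugation, and their RNA was depleted of rRNA and sequenced from both ends with a stranded kit. Per the labels and the methods of the study, the authors trimmed reads with cutadapt (version 1.9.3), aligned them with STAR (version 2.5.1b) on mm10 and detected circRNAs with DCC. The deposited counts are junction reads per circRNA and library. The log2 values deposited by the authors invert to these counts multiplied by a constant of each library, where 0.1 stands for a count of 0. The predicted lengths, another deposited column, are the authors' own.

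From the counts, ratios of model (A1) over normal (C1) were computed with exact (Clopper-Pearson) 95% intervals in Python (3.11.15, scipy 1.17.1), and TMM factors with edgeR (4.0.16). Exons, introns and sequences came from GENCODE M21, where 462 circRNAs matched exon edges and 459 of these had the authors' length. The intervals were tested on simulated counts. Named circRNAs are all those in both libraries, the 15 most read in each library alone (with ties), those of hosts read in both libraries through different circRNAs or with at least 4 in the table, and up to 4 per list with the most reads. Further list members were named after their values were seen. Junctions were shown only outside chromosome 18, and some circRNAs and 1 gene list are not reported here. The members and lists were chosen with earlier results of these data known. The 13 alternatives changed the value in place of 0, the scaling, the minimum of reads, the fold, the call, the unit counted or the source of the groups, and requiring the call under 4 scalings was added after the data were seen.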

Additional observations from a re-analysis of the deposited data

How the results depend on the processing

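Against 152 higher and 302 lower circRNAs, the counts stayed within 1.5 times with 0.5 reads in place of 0, without scaling (149 and 302), with total-read scaling (146 and 302), with TMM (142 and 305), at 4-fold (143 and 302), with circRNAs within 10 nt merged and with reads summed per host (137 and 237). For 138 of the 152 and 301 of the 302 the other library had 0 reads. The scaling, 4-fold and 0.5 reads could thus hardly change these calls, and their stability is no support for them. With 3 reads in place of 0 there were 139 higher and 148 lower, with a minimum of 10 reads in either library 132 and 104, with a minimum of 20 reads 99 and 22, by the exact interval 130 and 73, by the exact interval under 4 scalings 91 and 73, and with circRNAs of an earlier database alone 100 and 179. The minimum of 20 reads left 24 circRNAs of the normal library that could be called lower. Pathway lists with more lower than higher circRNAs numbered 11, and 7 with at least 10 reads, 0 with at least 20 reads, 2 by the exact interval, 5 by the exact interval under 4 scalings and 6 with GEO's titles.

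With TMM the log2 ratio turned for Med13l (-1.19), Strn3 (-1.14), Spc24 (-1.02), Hbb-bt (-0.86), Zfpm1 (-0.45), Nfix (-0.33), Adam10 (-0.31), Hba-a1 (-0.28), Pola1 (-0.16) and Ankib1 (-0.02), through the shift of -1.63 that TMM gives every ratio, and with total-read scaling for Med13l (-0.41), Strn3 (-0.36), Spc24 (-0.24) and Hbb-bt (-0.09). With groups from GEO's titles, B1 over A1, 127 circRNAs were higher and 146 lower. Library A1 stands below the ratio in this reading and above it in the other, so circRNAs read in A1 alone must turn. The log2 ratio then turned for Tlk1 (-10.66), Ikzf1 (-9.55), Cd2ap (-9.08), Pola1 (-8.91), Atp8a1 (-7.71), Zfpm1 (-7.62), Spc24 (-6.21), Erbb2ip (-3.15), Rps6kb1 (-1.27), Rnf169 (-0.69), Med12l (-0.67), Adam10 (-0.45), Nfix (-0.30) and Hba-a1 (-0.30). Ratios of the first 7 rest on 0.1 reads in place of 0 in B1. No paired analysis was possible because each group has 1 library, and no library could be left out.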
